A study of Homo sapiens with 6 samples.

Results

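The genes described here are direct transcriptional targets of the tumour suppressor p53, followed in AGS cells when beta-catenin was silenced. The set was a list of 31 gene symbols, and a gene entered when a row of the array table was paired with that symbol, current or older, and with no other. By this rule 28 of the 31 genes had a row, out of 18417 genes in the table, and no member had more than 1 row. BTG2 and FDXR are not analysed here. The row of TNFRSF10C, a decoy receptor gene for the death ligand TRAIL, was shared with a second symbol and was left out for that reason.

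AGS is an established human gastric adenocarcinoma line, known to carry a stabilising mutation of beta-catenin. Cells of 1 group were transfected with siRNA that targets beta-catenin (CTNNB1) and cells of the other with a control siRNA, both from Dharmacon, and RNA was taken 48 hours later. Each group held 3 samples on Affymetrix Human Gene 1.0 ST arrays, numbered 1 to 3 and called biological replicates in their titles. Neither the siRNA sequences nor the origin of the replicates (separate cultures or passages) is given in the sources used here, so the p-values reflect the variation among these samples, which may be technical. Values of a gene are listed in the order of the replicate numbers, for the control arrays and then for the CTNNB1 siRNA (silenced) arrays.

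p53 is a transcription factor that is kept low by the ubiquitin ligase MDM2 and is stabilised by DNA damage and other stresses. It binds a response element made of 2 similar half-sites and switches on genes that halt the cell cycle, repair DNA, adjust metabolism or start apoptosis. MDM2 is itself one of these targets, which closes a negative feedback loop. Many targets also answer to other factors: GDF15, SESN2 and TNFRSF10B, for example, are known to be induced in the integrated stress response through ATF4 and its partners.

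Values are log2 expression after RMA, a procedure that subtracts background, brings the arrays to a common distribution and gives 1 value per transcript cluster. Array medians lay between 5.38 and 5.46. CTNNB1 averaged 11.81 ± 0.091 (SD, n = 3) on control arrays and 10.54 ± 0.26 (SD, n = 3) on silenced arrays, which left 41.5% of the control level, and all 3 silenced arrays lay below all 3 controls. Its adjusted p in limma was 0.232, so the silenced gene itself did not pass the threshold of 0.05. CTNNB1 siRNA replicate 1 stood apart, with Pearson correlations of 0.962 to 0.965 with the other arrays across transcript clusters. The remaining pairs had 0.983 to 0.988. That replicate also had the lowest CTNNB1 level, 10.27, against 10.78 and 10.58 on silenced replicates 2 and 3. Stronger silencing and other deviations of that array cannot be told apart here. Epithelial markers were present: all 5 (EPCAM, KRT8, KRT18, KRT19 and CDH1) had means of at least 6.85, above 5.36, the level under which the dimmest 40% of transcript clusters lay. Of the fibroblast and endothelial markers, 6 of 7 lay under that level, the exception being COL1A1 at 6.74. Of 5 measured immune markers, 3 lay under it, while CD68 and LYZ, a lysozyme gene also made by gastric epithelium, did not.

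No p53 target passed the test after CTNNB1 silencing. In limma, a linear model with a spread shared across genes, the adjusted p of the 28 measured targets ran from 0.816 to 0.999, so 0 of 28 passed the threshold of 0.05, against 0.00514% of the 19460 transcript clusters tested. At an unadjusted p under 0.05 there were 3 targets, all higher: the arrest genes CDKN1A and PLK3 and the apoptosis gene PHLDA3. That is 10.7% of the targets, against 5.64% of all transcript clusters in either direction, of which 3.04% were higher and 2.6% lower. Leaving out control replicate 1, control replicate 3 or silenced replicate 1 reduced this count to 1 each time. The mean difference, CTNNB1 siRNA minus control siRNA, was above 0 for 14 targets (50%, against 49.2% of all transcript clusters) and below 0 for the other 14, with a median of 0.040 on the log2 scale, against -0.0052 over all 18417 genes. The groups did not overlap for 2 targets, both higher, which is 7.14% against 13.6% of all transcript clusters, of which 6.81% in the higher direction.

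The intervals bounded the array signal of the targets, each gene by itself and without adjustment for the number of genes. The 95% confidence interval of the difference had a median half-width of 0.41 on the log2 scale. For 24 of the 28 targets the interval lay wholly below a 2-fold rise, and for 27 it lay wholly above a 2-fold fall. For the other 4, GADD45A, TP53I3, GDF15 and TIGAR, a 2-fold rise was within the interval, and for CCNG1 a 2-fold fall was. In a bulk RNA sample, fewer cells expressing a gene and less RNA per cell cannot be told apart.

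**Figure D1:**
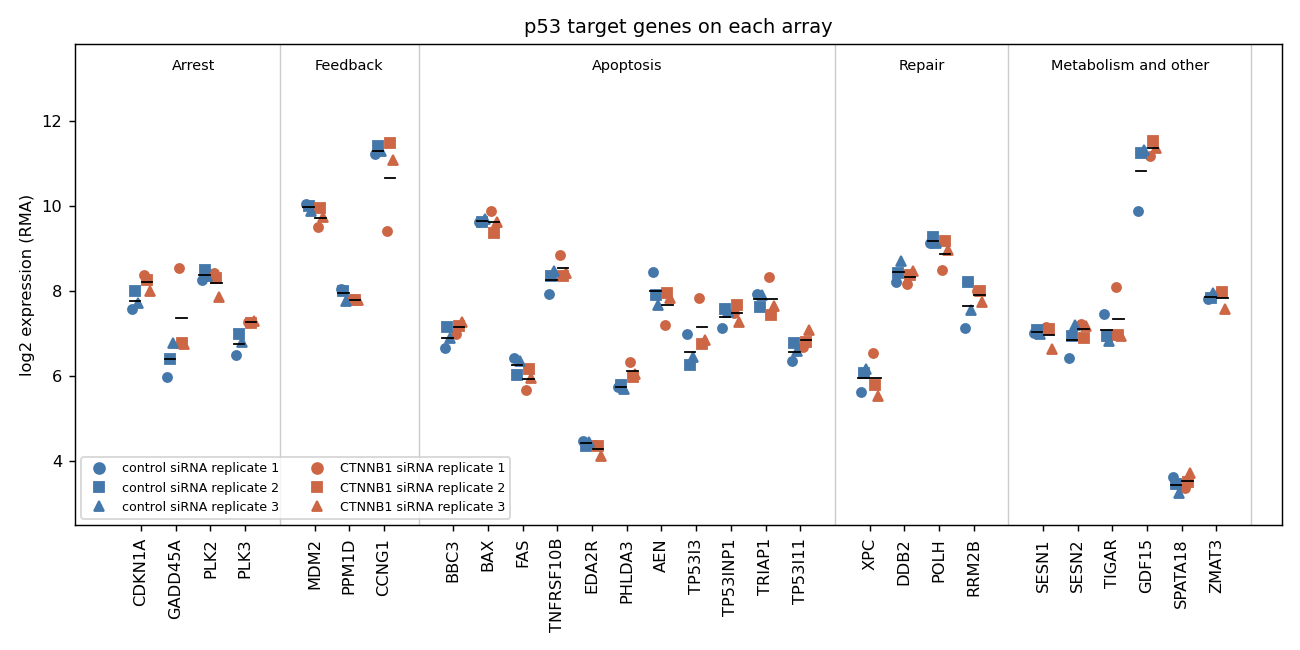
Log2 expression of the 28 measured p53 targets on each of the 6 arrays, by role, with control siRNA arrays in blue, CTNNB1 siRNA arrays in orange, marker shape giving the replicate and short black lines the group means. PLK3 and PHLDA3 are the 2 targets whose groups do not overlap, and CTNNB1 siRNA replicate 1 lies far from its group for GADD45A (8.55) and CCNG1 (9.41).

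Cell cycle arrest genes were higher in the mean for 3 of 4 members, with a median difference of 0.47. CDKN1A encodes p21, the inhibitor of cyclin-dependent kinases through which p53 halts cells in G1. It was 7.57, 8.01 and 7.72 on the control arrays and 8.36, 8.26 and 7.99 on the silenced arrays. The lowest silenced array, replicate 3, lay just below the highest control, replicate 2, so the groups overlapped by 1 array. The log2 difference was 0.44 (SE 0.17, 95% interval 0.042 to 0.84), a 1.36-fold higher level, with an adjusted p of 0.816 in limma and an unadjusted p of 0.0342. With any 1 array left out it was 0.34 to 0.56.

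PLK3, a polo-like kinase gene of the stress response, was the arrest gene with separate groups. Its control arrays read 6.49, 6.99 and 6.80, and its silenced arrays 7.27, 7.24 and 7.29. The silenced arrays lay within a range far narrower than that of the controls, among which replicate 1 was the lowest. The log2 difference was 0.50 (SE 0.16, 95% interval 0.13 to 0.88), or 1.42-fold, with an adjusted p of 0.816 and an unadjusted p of 0.0139 in limma. PLK2, a related kinase gene, did not share this pattern: it averaged 8.36 ± 0.11 (SD, n = 3) in controls and 8.20 ± 0.30 (SD, n = 3) after silencing. Its difference of -0.17 (SE 0.18) was 0.0056 without CTNNB1 siRNA replicate 3.

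GADD45A, a stress sensor that slows entry into mitosis, had the largest mean difference of the 28 targets and also the widest spread. It was 5.98, 6.41 and 6.79 on the control arrays and 8.55, 6.77 and 6.76 on the silenced arrays. Silenced replicates 2 and 3 therefore lay within the control range, and replicate 1 alone lay far above it. The difference was 0.97 (SE 0.47, adjusted p = 0.816 in limma), and 0.37 without CTNNB1 siRNA replicate 1. Over replicates 2 and 3 of both groups it was 0.17, while CDKN1A and PLK3 kept 0.26 and 0.37.

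Feedback genes gave the opposite picture in the mean, with 3 of 3 members lower and a median of -0.25. That median was -0.14 without silenced replicate 1 and -0.13 with array quality weights. These genes restrain p53: MDM2 marks it for degradation, PPM1D encodes the phosphatase WIP1 that dephosphorylates p53 and its activating kinases, and CCNG1 encodes cyclin G1, which acts on MDM2. MDM2 was 10.04, 10.00 and 9.88 on control arrays and 9.50, 9.94 and 9.73 on silenced arrays. Silenced replicate 2 lay inside the control range, so the groups overlapped. The log2 difference was -0.25 (SE 0.16, 95% interval -0.61 to 0.11, adjusted p = 0.816 in limma), and -0.14 without CTNNB1 siRNA replicate 1.

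PPM1D was 8.05, 8.01 and 7.77 on control arrays and lay between 7.78 and 7.81 on the silenced arrays, just above the lowest control. Its difference was -0.15 (SE 0.14). CCNG1 was 11.23, 11.40 and 11.28 in controls and 9.41, 11.47 and 11.08 after silencing. The low value of CTNNB1 siRNA replicate 1 made up nearly all of its difference of -0.65 (SE 0.47), which was -0.023 without that array.

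The sequences before the gene starts were searched for p53 response elements, to set the members with a recognisable site close to the start beside the others. The search took the 250 bases before each start in RefSeq (GRCh38.p14) and the p53 response element, 2 half-sites of 10 bases at most 1 base apart, with the C and G of each core fixed and at most 2 other positions of the whole element off the consensus. The element is its own reverse complement, so both strands were covered. The RefSeq table used here held 39 starts for 25 of the 31 genes, and 4 of these windows, in 3 genes, held a match, against 0.441% of all 35116 windows. The 3 genes were MDM2, FAS and AEN, and no letters of this kind stood in the windows of the other 22. The genes were listed because they are known p53 targets, so the comparison with all windows is not a test. Such a match is a description of the sequence. Sites farther from the start, such as the well-known upstream sites of CDKN1A, lie outside the window.

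The windows of these 3 genes are given 5′ to 3′ with the matched element in capitals. That of MDM2 is chr12:68808767-68809016 on the plus strand, before the start of the internal promoter through which p53 induces the gene, and a second RefSeq start there shares the element. That of FAS is chr10:88991181-88991430 on the plus strand, and that of AEN is chr15:88621090-88621339 on the plus strand, in GRCh38.p14 as well.
MDM2: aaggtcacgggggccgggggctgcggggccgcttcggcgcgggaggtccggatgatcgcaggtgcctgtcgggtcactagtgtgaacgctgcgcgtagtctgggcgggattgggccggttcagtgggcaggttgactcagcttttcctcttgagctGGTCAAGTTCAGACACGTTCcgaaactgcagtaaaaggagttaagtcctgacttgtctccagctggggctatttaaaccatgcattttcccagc
FAS: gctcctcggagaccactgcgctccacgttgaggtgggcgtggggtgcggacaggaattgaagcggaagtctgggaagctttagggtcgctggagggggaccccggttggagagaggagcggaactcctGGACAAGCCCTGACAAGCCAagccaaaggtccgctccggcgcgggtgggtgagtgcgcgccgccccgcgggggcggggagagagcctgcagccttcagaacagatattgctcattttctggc
AEN: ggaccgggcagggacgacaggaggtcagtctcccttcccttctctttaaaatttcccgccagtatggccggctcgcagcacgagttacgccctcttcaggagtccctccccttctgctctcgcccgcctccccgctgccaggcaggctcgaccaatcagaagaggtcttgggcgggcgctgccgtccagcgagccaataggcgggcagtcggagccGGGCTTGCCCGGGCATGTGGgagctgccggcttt

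None of these 3 genes was higher in the mean after CTNNB1 silencing: MDM2 differed by -0.25, FAS by -0.33 and AEN by -0.35. Their groups overlapped. Their confidence intervals ran in both directions: -0.61 to 0.11 for MDM2, -0.75 to 0.086 for FAS and -0.96 to 0.27 for AEN. Over replicates 2 and 3 of both groups, AEN differed by 0.11, MDM2 by -0.11 and FAS by -0.13. Measured genes with no such element in their windows went both ways. CDKN1A (0.44), PLK3 (0.50) and TP53I3 (0.58), for example, were higher, and CCNG1 (-0.65), POLH (-0.30) and PLK2 (-0.17) lower. Sites farther from the start were not searched. A relation between such an element and the difference after silencing was not tested. The windows of GADD45A and PHLDA3 are not analysed here.

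**Figure D2:**
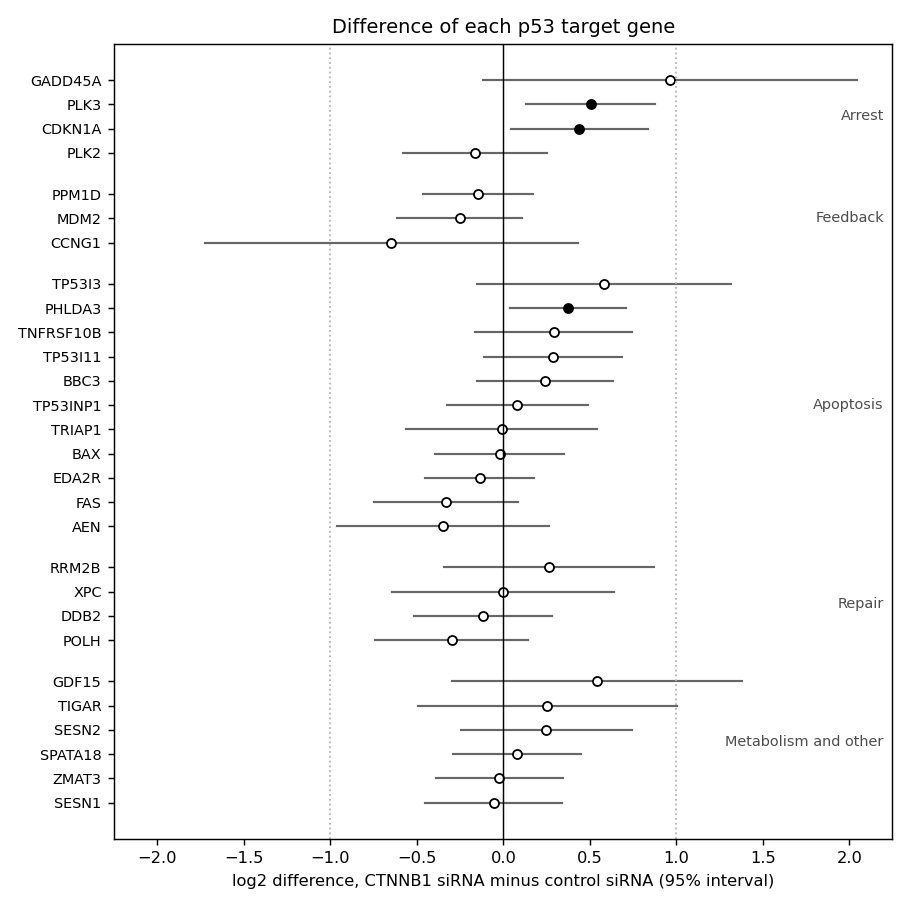
Log2 difference of each measured p53 target, CTNNB1 siRNA minus control siRNA, with its 95% confidence interval from limma (3 arrays per group); filled points have an unadjusted p under 0.05, open points do not, and dotted lines mark 2-fold changes. The intervals of CDKN1A, PLK3 and PHLDA3 lie above 0, and 23 of the 28 intervals stay within 2-fold in both directions.

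Among the apoptosis genes, 6 of 11 measured members were higher in the mean and 5 lower, with a median of 0.081. The death receptors did not share a direction. TNFRSF10B encodes the TRAIL receptor DR5, and it was 7.94, 8.35 and 8.46 on control arrays and 8.84, 8.36 and 8.42 on silenced arrays. FAS, the receptor gene for Fas ligand, was 6.42, 6.02 and 6.37 in controls and 5.68, 6.16 and 5.97 after silencing. In both genes silenced replicate 1 was the extreme array, the highest for TNFRSF10B and the lowest for FAS, and the groups overlapped. The differences were 0.29 (SE 0.20) for TNFRSF10B and -0.33 (SE 0.18) for FAS, each with an adjusted p of 0.816 in limma. Over replicates 2 and 3 alone they were -0.013 and -0.13. EDA2R, a receptor gene for ectodysplasin A2, lay between 4.14 and 4.47 on the 6 arrays, among the dimmest 40% of transcript clusters, where RMA compresses differences.

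In the mitochondrial arm, BBC3 encodes PUMA, a BH3-only protein, and BAX encodes the pore-forming effector. BBC3 was 6.66, 7.16 and 6.91 on control arrays and 6.99, 7.18 and 7.27 on silenced arrays, a difference of 0.24 (SE 0.17), and 0.11 without control siRNA replicate 1. BAX was 9.62, 9.62 and 9.69 in controls and 9.87, 9.37 and 9.63 after silencing, with a difference of -0.021 (SE 0.16, 95% interval -0.39 to 0.35). For BAX, silenced replicates 1 and 2 lay on either side of a tight control group and replicate 3 lay inside it. TRIAP1, an inhibitor of apoptosis that moves lipids inside mitochondria, differed by -0.0097 (SE 0.24), and by 0.029 after quantile normalization.

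PHLDA3 encodes a pleckstrin homology protein that restrains AKT, and it was the apoptosis gene with separate groups. It was 5.75, 5.78 and 5.69 on control arrays and 6.33, 5.98 and 6.05 on silenced arrays. Controls spanned less than the gap to the nearest silenced array, replicate 2, and silenced replicate 1 was the highest. The log2 difference was 0.38 (SE 0.15, 95% interval 0.041 to 0.71), or 1.30-fold, with an adjusted p of 0.816 and an unadjusted p of 0.0323 in limma. It was 0.27 without CTNNB1 siRNA replicate 1 and 0.28 over replicates 2 and 3 of both groups.

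TP53I3, a quinone oxidoreductase gene linked to oxidative stress, was 7.001, 6.25 and 6.45 on control arrays and 7.84, 6.75 and 6.86 on silenced arrays. Control replicate 1 lay above silenced replicates 2 and 3, so the groups overlapped although the difference was 0.58 (SE 0.32). It was 0.24 without CTNNB1 siRNA replicate 1. AEN, an apoptosis-enhancing nuclease gene, was 8.46, 7.90 and 7.67 in controls and 7.20, 7.95 and 7.83 after silencing. Its difference of -0.35 (SE 0.27) was -0.12 without the replicate numbered 1 of either group, and 0.11 over replicates 2 and 3. TP53INP1, which encodes a nuclear cofactor of p53, differed by 0.081 (SE 0.18), and TP53I11 by 0.29 (SE 0.17), both with overlapping groups.

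Repair genes were lower in the mean for 3 of 4 members, with a median of -0.059, which was 0.061 without control replicate 3 and 0.017 without silenced replicate 3. XPC and DDB2 find damaged bases for nucleotide excision repair. XPC averaged 5.96 ± 0.29 (SD, n = 3) in controls and 5.96 ± 0.54 (SD, n = 3) after silencing, while DDB2 was 8.45 ± 0.25 (SD, n = 3) and 8.33 ± 0.16 (SD, n = 3). Neither group mean lay outside the spread of the other. POLH, the gene of a polymerase that copies past ultraviolet lesions, was 9.12, 9.27 and 9.12 on control arrays and 8.49, 9.18 and 8.95 on silenced arrays. Its difference was -0.30 (SE 0.19), and -0.11 without CTNNB1 siRNA replicate 1. RRM2B, the p53-inducible subunit gene of ribonucleotide reductase, was 7.14, 8.22 and 7.56 in controls and 7.99, 7.997 and 7.73 after silencing. All 3 silenced arrays lay inside the control range, and the difference of 0.26 (SE 0.26) was 0.013 without control siRNA replicate 1.

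Of the metabolic and other targets, 4 of 6 measured members were higher in the mean, with a median of 0.16. GDF15, a secreted stress cytokine gene, was 9.87, 11.25 and 11.31 on control arrays and 11.18, 11.53 and 11.35 on silenced arrays. Control replicate 1 was the array that stood apart here, and the difference of 0.54 (SE 0.36, adjusted p = 0.816 in limma) was 0.071 without it. SESN2, an inhibitor of the growth kinase mTORC1, showed the same low control array, with 6.43, 6.95 and 7.19 in controls and 7.23, 6.90 and 7.18 after silencing. Its difference of 0.25 (SE 0.21) was 0.034 without control siRNA replicate 1. SESN1, its paralogue, differed by -0.057 (SE 0.17).

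Genes of the integrated stress response outside the p53 set were low on the same array. The median deviation of 16 measured genes from their control mean was -0.55, 0.10 and 0.41 on the control arrays and 0.37, -0.0042 and 0.18 on the silenced arrays. Their median difference was 0.26. It was 0.051 without control replicate 1, 0.045 without silenced replicate 1, -0.018 with array quality weights and -0.11 over replicates 2 and 3 of both groups. None of the 16 had an unadjusted p under 0.05 in limma, against 5.64% of all transcript clusters, a share that leaves few calls to expect among 16 genes. The smallest p-values belonged to the stress factor gene ATF3 (difference 0.56, SE 0.27) and the mTORC1 regulator gene DDIT4 (0.77, SE 0.39). The part of this pattern in the values of GDF15 and SESN2 was not tested.

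TIGAR, a fructose bisphosphatase gene that lowers glycolysis, was 7.46, 6.94 and 6.83 on control arrays and 8.09, 6.98 and 6.94 on silenced arrays. The replicate numbered 1 was the highest in both groups, and the difference of 0.25 (SE 0.32) was -0.12 without CTNNB1 siRNA replicate 1. ZMAT3, an RNA-binding zinc finger gene, differed by -0.024 (SE 0.16), and by 0.014 after quantile normalization. SPATA18, a gene of mitochondrial quality control, lay between 3.26 and 3.71 on the 6 arrays, among the dimmest 40% of transcript clusters.

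**Figure D3:**
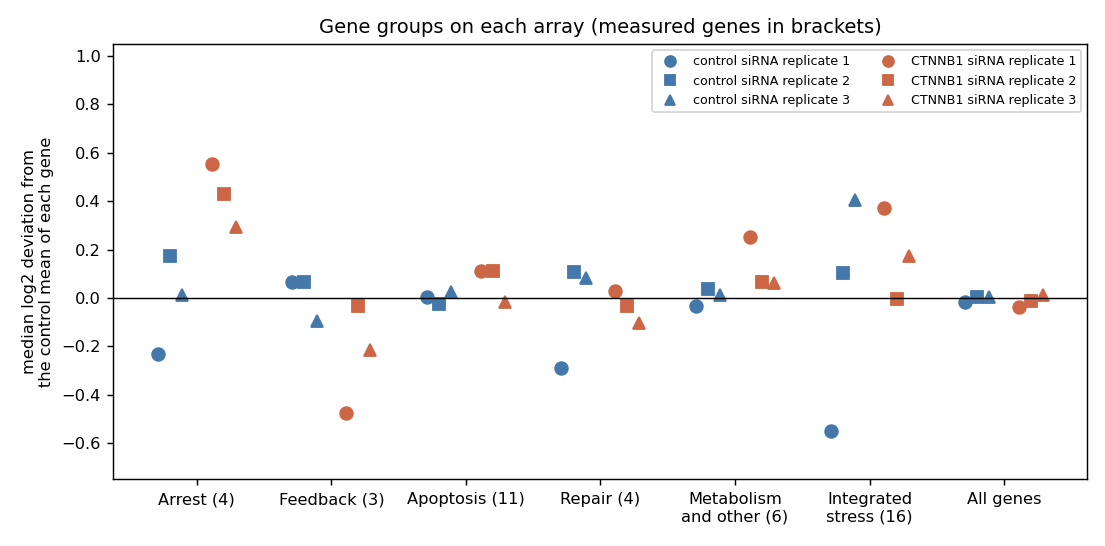
Median log2 deviation of each group of genes from the control mean of each gene, by array, with control siRNA in blue, CTNNB1 siRNA in orange and marker shape giving the replicate. The arrest genes lie at 0.29 to 0.55 on the silenced arrays and at -0.23 to 0.17 on the controls, the groups overlap for the feedback genes, and the integrated stress genes are lowest on control siRNA replicate 1 (-0.55).

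Seen array by array, the median deviation of all 28 measured targets from their control mean overlapped between the groups. It was -0.063, 0.065 and 0.0090 on the control arrays and 0.12, 0.067 and -0.073 on the silenced arrays. Among the parts, the arrest genes and the metabolic and other genes had group medians that did not overlap. Neither did those of the second list of p53 targets described below. Over all tested genes the medians overlapped, at -0.016, 0.0055 and 0.0023 on the control arrays and -0.037, -0.014 and 0.012 on the silenced arrays. The separation of such medians was not tested, and several groups of genes were looked at. For the arrest genes the median deviation from the control mean was -0.23, 0.17 and 0.014 on the control arrays and 0.55, 0.43 and 0.29 on the silenced arrays. For the metabolic and other genes it was -0.033, 0.035 and 0.013 against 0.25, 0.067 and 0.060, a much narrower gap. For the apoptosis genes it was at most 0.024 on the controls and 0.11, 0.11 and -0.017 on the silenced arrays, so the groups overlapped. The feedback genes, at -0.47, -0.034 and -0.22 on the silenced arrays, overlapped the controls, of which replicate 3 was at -0.094. The arrest median rests on 4 genes and was 0.22 over replicates 2 and 3 of both groups.

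The arrays numbered 1 held many of the extremes. CTNNB1 siRNA replicate 1 was the highest array for 11 of the 28 targets (39.3%, against 24.6% of all genes) and the lowest for 6 (21.4%, against 31.4%). Control siRNA replicate 1 was the lowest array for 10 targets (35.7%, against 20.1%). The median range over the 6 arrays was 0.76 for the targets and 0.59 for all genes. Among genes above the level of the dimmest 40%, which took in 26 of the targets, it was 0.79 for the targets and 0.67 for all.

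**Figure D4:**
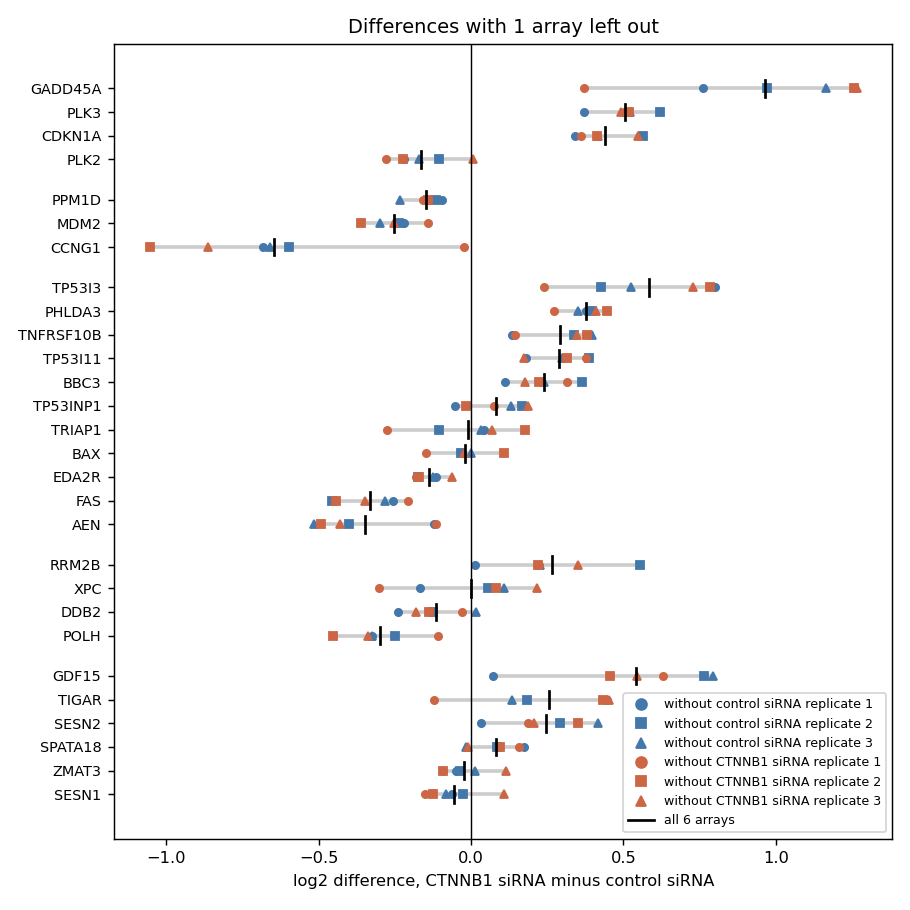
Log2 difference of each measured p53 target with all 6 arrays (black bar) and with each array left out in turn (colour gives the group and marker shape the replicate of the array left out). The sign held in all 6 of these fits for 18 of the 28 targets, 11 higher and 7 lower, and the bars of GADD45A, CCNG1 and GDF15 are the widest.

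The sign of the difference held with each array left out in turn for 18 of the 28 targets (64.3%), against 54.6% of all genes. Of these, 11 were higher and 7 lower. They included CDKN1A, PLK3, GADD45A and PHLDA3 on the higher side and MDM2, PPM1D, FAS and POLH on the lower side. No target passed the adjusted threshold in any of the 15 alternative analyses, where the smallest adjusted p of a target was 0.395.

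Upstream of the targets, 23 of 25 genes of the p53 core and its regulators were measured, 7 higher and 16 lower in the mean, with a median of -0.14. None passed in limma after adjustment, and 1 (4.35%, against 5.64% of all transcript clusters) had an unadjusted p under 0.05. This was ATM, the kinase gene that activates p53 after double-strand breaks, at 6.97 ± 0.082 (SD, n = 3) in controls and 6.57 ± 0.27 (SD, n = 3) after silencing (difference -0.40, SE 0.17, adjusted p = 0.816). MDM4, the gene of the MDM2 partner that blocks the p53 activation domain, averaged 7.70 ± 0.22 (SD, n = 3) and 7.74 ± 0.077 (SD, n = 3), a difference of 0.036 (SE 0.16).

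A second list of p53 targets, taken whole, had 41 of 43 genes measured, 25 higher and 16 lower, with a median of 0.057. None passed after adjustment, and 3 had an unadjusted p under 0.05 in limma, all higher. They were EPHA2, an ephrin receptor gene (0.72, SE 0.21), SFN, the gene of the 14-3-3 sigma protein that holds cells in G2 (0.47, SE 0.19), and RAP2B, a small GTPase gene (0.35, SE 0.14). The share with such a p, 7.32%, compares with 5.64% of all transcript clusters and with 10.7% for the 28 targets. The groups did not overlap for 9 of the 41 genes (22.0%, against 13.6% of all transcript clusters), 4 of them higher and 5 lower after silencing. The higher ones were those 3 and TRAF4, a signalling adaptor gene (0.27, SE 0.14). The lower ones were CYFIP2 (-0.44, SE 0.20), E2F7 (-0.34, SE 0.22), FBXO22 (-0.24, SE 0.14), DRAM1 (-0.23, SE 0.13) and DYRK3 (-0.20, SE 0.13). TRAF4 and these 5 were named after their values were seen. The median deviation of the 41 genes per array was -0.065, 0.015 and 0.0050 in controls against 0.044, 0.11 and 0.078 after silencing.

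p21 acts on the cell cycle partly through the DREAM complex, which represses cell cycle genes. Of 22 such genes, all measured, 14 were lower and 8 higher in the mean, with a median of -0.087. That median was 0.0057 without silenced replicate 3 and -0.038 without silenced replicate 2. None passed after adjustment, and 2 (9.09%, against 5.64% of all transcript clusters, 2.6% being lower) had an unadjusted p under 0.05 in limma, both lower: FOXM1, a mitotic transcription factor gene (-0.54, SE 0.19), and PLK1, a mitotic kinase gene (-0.42, SE 0.18). They shrank to -0.35 and -0.24 without CTNNB1 siRNA replicate 1. Per array, the median deviation of these genes was -0.072, -0.014 and 0.036 in the controls against 0.14, -0.058 and -0.23 among the silenced arrays, which lay on both sides of the controls. They were lowest on CTNNB1 siRNA replicate 3 (-0.23). A link between these genes and the level of CDKN1A was not tested.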

How the data were processed

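The authors deposited 1 log2 value per transcript cluster and array, after RMA; the software was Affymetrix Expression Console 1.1, according to the submitters' processing notes. Summary settings, annotation and build are not stated there. That the scale is log2 was inferred from the values. RNA (500 ng per sample) was labelled as sense cDNA, per the labels' protocols.

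Of 33297 rows, 19460 were paired with 1 gene symbol and tested. For 19429 of them the current symbol was read from RefSeq through the gene identifier, whether or not it differed from the older symbol. The row with the highest mean stood for a gene. Groups of 3 arrays, assigned by the siRNA in the labels, were compared with limma 3.58.1 in R 4.3.3 (lmFit and eBayes), 2-sided, with Benjamini-Hochberg adjustment over all tested rows and a threshold of 0.05. A 2-sided exact permutation test of 3 arrays against 3 cannot give a p below 0.1, so none was used. The procedure was tested on simulated data. At most 43 values were identical between any 2 arrays, so all 6 were kept as separate samples.

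The text names every measured p53 target, CTNNB1, MDM4, and from each other list up to 6 genes with an unadjusted p under 0.05, or else the 2 with the smallest p. Members and lists were chosen with earlier results of these data known. Alternatives covered the block, array weights, scaling, a filter on dim rows, the row used, the rows tested, the eBayes prior, each array left out, and, added after seeing the data, replicates 2 and 3 only. Updated gene symbols, and the sequences before gene starts with their coordinates (GRCh38.p14), come from RefSeq. No coordinates of the array were taken from it.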

Additional observations from a re-analysis of the deposited data

How the results depend on the processing

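The number of arrays limited every value, and dim transcript clusters, EDA2R and SPATA18 among the targets, were measured close to background. Over all tested clusters limma called 1 gene. It called 0 with the replicate block, without the dimmest 40% of clusters, with arrays centred on their medians and with every cluster tested, where 1123, 670, 1163 and 1569 clusters had an unadjusted p under 0.05. It called 13 with array quality weights, CTNNB1 among them (-1.12), 2 over replicates 2 and 3 only, and 0 to 10 with 1 array left out, where 695 to 1428 clusters had an unadjusted p under 0.05.

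Same-numbered arrays deviated together weakly (r = 0.092, 0.120 and 0.098 across clusters for numbers 1 to 3). Each array correlated best with its own number in the other group, which is a hint from the data and not from the design. The sources used here do not state that the numbers are pairs, so the main fit did not use them as pairs. The replicate block in limma moved the count of calls from 1 to 0. It moved the number of targets with an unadjusted p under 0.05 from 3 to 4.

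The number of targets with an unadjusted p under 0.05 was 3, and 1 to 4 with 1 array left out. With 1 array left out the median difference lay between -0.027 and 0.14 for all targets, 0.043 and 0.18 for apoptosis, and 0.032 and 0.22 for metabolic and other genes. Over replicates 2 and 3 only, a setting added after seeing the data, it was 0.22 for arrest, -0.013 for apoptosis, 0.022 for metabolic and other genes, -0.10 for the p53 core and -0.11 for integrated stress. Without the dimmest 40% it was 0.16 for apoptosis, 0.25 for metabolic and other genes and 0.13 for the second list of targets, as fewer genes then count. With array quality weights it was 0.057 for metabolic and other genes. The cause was not tested for the other settings.

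Of 418 alternative values of the targets, 27 had the opposite sign, in 14 genes, and none passed the threshold. Over replicates 2 and 3 only, the difference was -0.013 for TNFRSF10B, 0.11 for AEN, -0.060 for TP53INP1, -0.029 for RRM2B, -0.028 for SESN2 and -0.026 for MDM4. After quantile normalization it was 0.029 for TRIAP1 and 0.014 for ZMAT3. With 1 array left out, the differences that turned sign lay between -0.28 and 0.0056 (PLK2), -0.15 and 0.11 (BAX), -0.052 and 0.19 (TP53INP1), -0.28 and 0.18 (TRIAP1), -0.30 and 0.22 (XPC), -0.24 and 0.015 (DDB2), -0.15 and 0.11 (SESN1), -0.12 and 0.45 (TIGAR), -0.015 and 0.17 (SPATA18), -0.093 and 0.11 (ZMAT3) and -0.061 and 0.16 (MDM4).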
